A study of Homo sapiens with 48 samples.

Results

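Silencing of MFN1 in doxorubicin-treated SK-MEL-103 cells was described from 6 of the 48 libraries of the series, chosen by their titles: 3 libraries with an siRNA against MFN1 (siMFN1) and 3 with a negative control siRNA (cNeg). SK-MEL-103 is an established human melanoma line. Both groups were transfected 1 day before doxorubicin, a DNA-damaging drug applied for 48 h at 200 nM to make the cells senescent. Drug-free medium followed, for a period that the labels give as at most 7 days. The same experiment holds 4 further groups of 3 SK-MEL-103 libraries, which are used here beside the main comparison: proliferating cells with cNeg and no doxorubicin, and doxorubicin-treated cells with siMFN2, with both mitofusin siRNAs (siMFN1+2) or with siMAVS. The same siRNA experiment was also done in IMR-90, a fibroblast line from fetal lung. Every group of these siRNA experiments was transfected, so none of them shows untransfected cells, and the siRNA sequences are not given in the sources used here. A group stands for one cell line, and the sources used here do not say whether its 3 libraries came from separate cultures. The p-values therefore measure the spread between these libraries, which may be technical.

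MFN1 and MFN2 are the mitofusins, large GTPases of the outer mitochondrial membrane that tether and fuse neighbouring mitochondria. The same membrane carries MAVS, the adaptor through which the RNA sensors RIG-I and MDA5 switch on type I interferon. Secreted interferon acts through its receptor and the kinases JAK1 and TYK2 on a transcription factor complex that binds the interferon-stimulated response element (ISRE) in the promoters of interferon-stimulated genes. These genes encode antiviral effectors, such as the IFIT and OAS families, and also regulators such as the feedback inhibitor USP18. Senescent cells often express a low, lasting interferon response beside the secreted inflammatory proteins known as the senescence-associated secretory phenotype (SASP).

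The 6 libraries held 25068456 to 69723645 counts and the 18 SK-MEL-103 libraries 18434699 to 71851091. In both groups the library numbered 1 was the deepest and that numbered 3 the shallowest, so depth and replicate number cannot be told apart. The line showed SOX10 at 597 to 710 CPM (counts scaled to library size by edgeR) in the 6 libraries, whereas the pigment genes MLANA, TYR, DCT and TYRP1 were each under 0.33 CPM and MITF, their master regulator, lay between 7.33 and 10.01 CPM. These low genes do not stand for all 18 genes of the melanocyte lineage list. Its sum was 1067 to 1159 CPM with cNeg and 1131 to 1223 CPM with siMFN1. NGFR and AXL, markers of dedifferentiated melanoma, were above 860 CPM in each of the 6 libraries (NGFR 1330 to 2233 CPM, AXL 869 to 1107 CPM). Summed over 8 leukocyte markers, the level was 1.71 to 1.94 CPM with cNeg and 1.32 to 1.63 CPM with siMFN1. Sums for markers of other cell types were higher. For 10 fibroblast markers they were 93.1 to 110 CPM with cNeg and 96.0 to 123 CPM with siMFN1. For 8 epithelial markers they were 55.3 to 69.6 and 51.7 to 64.0 CPM, and for 6 endothelial markers 34.8 to 47.3 and 29.2 to 61.5 CPM. The part of all these transcripts in the interferon result was not tested. CDKN1A, a cell cycle inhibitor under p53 control, was at 562 ± 40.4 CPM (SD, n = 3) in proliferating cells, 2169.6 ± 134 CPM with doxorubicin and cNeg, and 2168 ± 291 CPM with siMFN1.

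MFN1 (chr3:179347692-179394931, GENCODE 29 on GRCh38) was measured at 52.7, 52.2 and 58.8 CPM in cNeg replicates 1 to 3 and at 19.9, 20.9 and 14.0 CPM in siMFN1 replicates 1 to 3. The groups did not overlap, and MFN1 was left at 33.7 % of the control level (log2 fold change -1.57, SE 0.16, adjusted p = 0.00016, edgeR quasi-likelihood test with Benjamini-Hochberg adjustment over 17945 genes, as in the edgeR comparisons below unless another fit is named). MFN2, the other mitofusin, was at 98.9, 93.4 and 108 CPM with cNeg and at 96.5, 89.5 and 108 CPM with siMFN1, a log2 difference of -0.03 (SE 0.10). MAVS was at 169 to 187 CPM with cNeg and 172 to 186 CPM with siMFN1. Both ranges overlapped between the groups, and neither gene passed the test (adjusted p = 0.99 and 0.996).

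In the unblocked edgeR fit 16 genes were called, and 11 of them were interferon-stimulated. With the replicate block over all groups 14 of 44 called genes were in that list, with the block and only the 6 libraries 30 of 3094, and with DESeq2 13 of 47. At an adjusted p under 0.05 without the block, 15 genes were lower and 1 was higher, and 854 genes had an unadjusted p under 0.05. The 15 lower genes were 0.0836 % of the 17945 tested. Of a list of 48 interferon-stimulated genes, 41 were tested, and 11 of these 41 were lower and none higher. Of the 11 genes, 10 are described here: IFI27, RSAD2, IFI44L, IFI6, OAS2, OASL, IFIT1, USP18, OAS3 and ISG15. The median log2 fold change over the 41 genes was -0.43, against 0.01 over all genes tested, and 38 of the 41 had a negative fold change. These are bulk libraries, in which fewer cells that express a gene and less RNA of it per cell cannot be told apart. In 29 of the 41, all siMFN1 libraries lay below all cNeg libraries, a pattern found in 7.89 % of all genes tested. Leaving out each of the 6 libraries in turn left 3 to 9 called genes and 2 to 7 called members of the list. IFI6 and MFN1 were called in all 6 of these fits, IFI27 in 5, IFIT1, USP18 and FAM89B in 3, MYBL1 in 2, IFI44L and RSAD2 in 1, and OAS2, OASL, OAS3, ISG15, B4GALT6 and WBP1L in 0. The list and its members were chosen with earlier results of these data known.

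**Figure D1:**
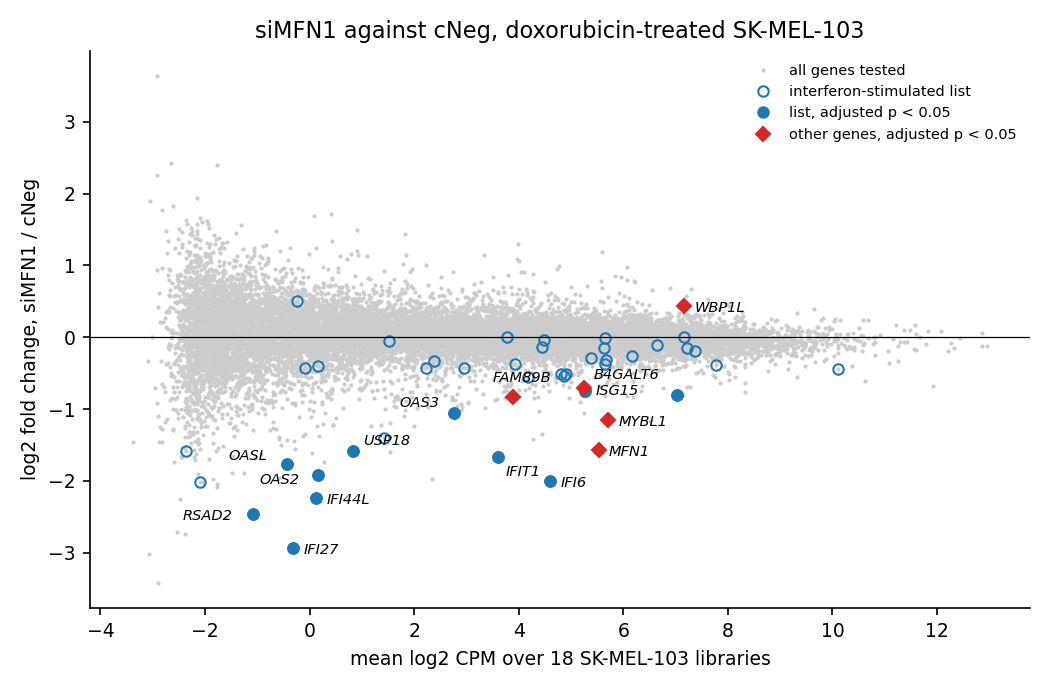
Log2 fold change of siMFN1 over cNeg (vertical axis) against the mean log2 CPM over 18 SK-MEL-103 libraries (horizontal axis) for the 17945 genes tested, with the interferon-stimulated list as blue circles (filled where the adjusted p is under 0.05) and other called genes as red diamonds. The 11 filled circles all lie below 0, and WBP1L is the 1 called gene above 0.

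The reference promoters of the genes that fell were searched for the ISRE. The promoter windows used run from 250 bases before to 50 bases after a gene's start (RefSeq, GRCh38.p14). The ISRE core, taken as GAAA, any 2 bases and GAAA on either strand, was found in the window of all 7 called interferon-stimulated genes that have one in the table, in 18 of 26 tested but uncalled members of the list (69.2 %), and in 4.07 % of 11796 tested genes with a window. OAS2, OASL and USP18 had no entry. The gamma-activated site TTCNNNGAA, another interferon-responsive element, was found in 1 of these 7 windows, in 8 of the 26 uncalled members (30.8 %) and in 8.77 % of the tested genes with a window. These matches describe the letters of the reference and are not evidence of binding. The stretches that follow hold the matches of 5 of the 7 genes, chosen to show single, paired and triple cores, and are written 5′ to 3′ on the gene's strand with the ISRE core in capitals, or its reverse complement where the core lies on the other strand.
IFI6 (chr1:27672261-27672363, minus strand): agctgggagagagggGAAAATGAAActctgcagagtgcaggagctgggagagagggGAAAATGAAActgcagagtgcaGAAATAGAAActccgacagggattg
IFI27 (chr14:94110613-94110665, plus strand): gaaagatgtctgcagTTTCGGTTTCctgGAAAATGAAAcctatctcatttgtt
IFIT1 (chr10:89392492-89392544, plus strand): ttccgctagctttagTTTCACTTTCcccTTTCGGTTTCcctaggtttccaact
ISG15 (chr1:1013369-1013414, plus strand): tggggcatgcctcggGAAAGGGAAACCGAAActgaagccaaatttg
RSAD2 (chr2:6877617-6877656, plus strand): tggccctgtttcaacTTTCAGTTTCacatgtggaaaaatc
IFI6 holds 3 cores, whose first bases lie at -156, -115 and -93 from the start, and the first and second are the same 10 letters in a repeated stretch. IFIT1 holds 2 cores, at -116 and -103, and those of ISG15 overlap, at -113 and -107. RSAD2 holds a single core at -145.

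IFI6, a small mitochondrial and endoplasmic reticulum protein induced by type I interferon, had the lowest adjusted p of all genes. It was at 68.0, 66.7 and 78.0 CPM with cNeg and at 19.5, 14.8 and 18.8 CPM with siMFN1. The groups were far apart, and IFI6 was 4.01-fold lower (log2 fold change -2.0, SE 0.17, adjusted p = 2.4e-05). In proliferating cells it was at 5.36, 7.71 and 8.42 CPM, so the siMFN1 level lay between those of the proliferating and the senescent controls. IFI27, its relative in the same family, was at 2.26, 2.59 and 2.80 CPM with cNeg and at 0.429, 0.368 and 0.121 CPM with siMFN1, and fell the most of the called genes (log2 fold change -2.94, SE 0.41, adjusted p = 0.0064). Its siMFN1 values rest on 29, 14 and 3 counts, and its call was lost when siMFN1 replicate 2 was left out (adjusted p = 0.064). IFI44L, an interferon-induced protein, fell by 2.24 on the log2 scale (SE 0.40, adjusted p = 0.040), from 3.30, 3.39 and 1.98 CPM to 0.739, 0.604 and 0.444 CPM. In IFI44L the third control library was the lowest of its group and still above each siMFN1 library.

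Among the antiviral effectors, IFIT1, which binds foreign RNA that lacks cap methylation, was at 37.3, 36.2 and 24.7 CPM with cNeg and at 11.4, 9.11 and 10.4 CPM with siMFN1 (log2 fold change -1.66, SE 0.24, adjusted p = 0.0064). Neither IFIT2 nor IFIT3, its neighbours in the family, passed: IFIT2 had a log2 fold change of -0.56 (adjusted p = 0.67) and IFIT3 of -0.54 (adjusted p = 0.91). RSAD2, the viperin gene whose product makes a chain-terminating nucleotide, was at 1.48, 1.82 and 0.889 CPM with cNeg and at 0.251, 0.236 and 0.283 CPM with siMFN1 (log2 fold change -2.46, SE 0.40, adjusted p = 0.021). Its siMFN1 libraries held 17, 9 and 7 counts. The antiviral GTPase gene MX1 was one of 3 list members with a positive fold change, at 0.60, 1.02 and 0.494 CPM with cNeg and 1.03, 1.21 and 0.767 CPM with siMFN1 (log2 fold change 0.51, SE 0.30, adjusted p = 0.99). Its groups overlapped. The other two were TRIM22 and ISG20, both with a log2 fold change between 0.00 and 0.01.

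The OAS genes encode enzymes that sense double-stranded RNA and make 2-5A, the activator of RNase L. OAS3 was at 9.01, 8.30 and 7.93 CPM with cNeg and at 4.2, 3.62 and 4.36 CPM with siMFN1 (log2 fold change -1.05, SE 0.18, adjusted p = 0.033). OAS2 fell from 3.04, 3.22 and 2.50 CPM to 0.843, 0.552 and 0.928 CPM (log2 fold change -1.92, adjusted p = 0.041), and the OAS-like gene OASL from 1.81, 1.48 and 1.61 CPM to 0.340, 0.552 and 0.605 CPM (log2 fold change -1.76, adjusted p = 0.035). OAS1 was at 6.07, 6.19 and 4.84 CPM with cNeg and at 2.16, 1.79 and 2.54 CPM with siMFN1 and missed the threshold (log2 fold change -1.41, SE 0.26, adjusted p = 0.052). In all 4 genes the groups did not overlap.

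Among the regulators of the response itself, USP18, which removes ISG15 from proteins and dampens the interferon receptor, was at 3.08, 3.01 and 2.34 CPM with cNeg and at 0.798, 0.840 and 1.25 CPM with siMFN1 (log2 fold change -1.58, SE 0.23, adjusted p = 0.0064). ISG15, the ubiquitin-like modifier, passed narrowly: 65.5, 64.6 and 64.0 CPM against 40.5, 34.9 and 40.0 CPM, a log2 fold change of -0.75 (SE 0.14, adjusted p = 0.0497). Of the 18 tested genes of the receptor, JAK-STAT and IRF list, 2 were called, both also members of the first list and USP18 among them, and the list's median log2 fold change was -0.03. STAT2 (log2 fold change -0.15), IRF9 (-0.05) and IRF1 (-0.13) did not pass.

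**Figure D2:**
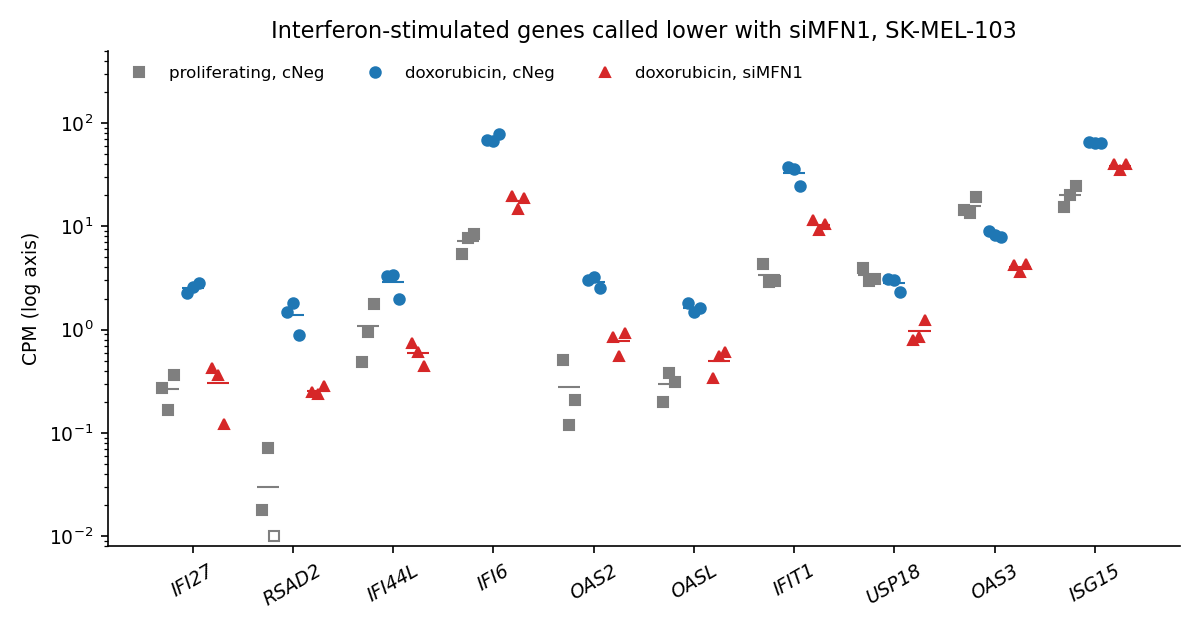
CPM in each library (points, log axis) of 10 called interferon-stimulated genes in proliferating cells with cNeg (grey squares), doxorubicin-treated cells with cNeg (blue circles) and doxorubicin-treated cells with siMFN1 (red triangles), with group means as bars; an open symbol on the lowest tick is a count of 0. In all 10 genes the red points lie below the blue ones, and in IFI6, IFIT1 and ISG15 they stay above the grey ones.

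The interferons themselves were at or near 0 counts. IFNB1 had 1 count over the 6 libraries and 1 over all 18, and IFNL1 had 0 over the 6, so neither could be compared. CXCL10, a chemokine strongly induced by interferon, had 7 counts over the 6 libraries, and 7 members of the list (BST2, CMPK2, CXCL10, CXCL11, HERC5, IRF7 and XAF1) were too low to be tested. BST2 had 16, 10 and 10 counts with cNeg and 2, 2 and 2 with siMFN1.

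The called genes did not share one response to doxorubicin. With cNeg, 9 of the 11 interferon-stimulated genes were higher in doxorubicin-treated than in proliferating cells, where 29.4 % of all tested genes were higher. IFI6 rose by 3.32 on the log2 scale (SE 0.18) and IFIT1 by 3.24 (SE 0.26). OAS3 fell, with a log2 fold change of -0.89 (adjusted p = 0.00034, 29.9 % of genes lower), and USP18 had a log2 fold change of -0.25 (adjusted p = 0.32). With siMFN1 and doxorubicin, a comparison added after the values were seen, 5 of the 11 were still higher than in proliferating cells (31.3 % of all genes): IFI6, IFIT1, ISG15, OAS2 and RSAD2. USP18 and OAS3 were below the proliferating level (30.8 % of all genes), with log2 fold changes of -1.83 and -1.94. IFI27, IFI44L and OASL did not pass against proliferating cells (log2 fold changes 0.37, -0.71 and 0.72). These comparisons share libraries with the main one, and no overlap between them was tested. The 11 were chosen for being higher in these cNeg libraries than with siMFN1, so their counts here carry no support. Of the 41 tested members of the list, 30 were higher and 3 lower with doxorubicin and cNeg than in proliferating cells. With doxorubicin and siMFN1 20 of the 41 were higher and 6 lower than in proliferating cells.

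The 4 called genes that are neither MFN1 nor interferon-stimulated were MYBL1, FAM89B, B4GALT6 and WBP1L. MYBL1, a MYB-family transcription factor, was at 65.0, 59.8 and 73.4 CPM with cNeg and at 25.1, 29.8 and 34.6 CPM with siMFN1 (log2 fold change -1.15, SE 0.18, adjusted p = 0.019). FAM89B (chr11:65572349-65574198) had little spread in either group, at 18.6, 19.4 and 18 CPM against 10.3, 10.7 and 10.7 CPM (log2 fold change -0.83, SE 0.12, adjusted p = 0.0064). B4GALT6, a galactosyltransferase of the lactosylceramide pathway, was at 32.4, 31.3 and 35.0 CPM against 19.4, 21.5 and 19.8 CPM (log2 fold change -0.70, SE 0.13, adjusted p = 0.0497). WBP1L (chr10:102743901-102834516), which encodes a WW domain binding protein, was the 1 gene that rose, from 124, 126 and 127 CPM to 170, 167 and 174 CPM (log2 fold change 0.44, SE 0.07, adjusted p = 0.024).

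The levels of these genes in the other SK-MEL-103 groups differed by gene. MYBL1 was at 63.1 to 86.4 CPM with siMFN2, at 48.1 to 63.9 CPM with siMAVS and at 29.5 to 46.8 CPM with siMFN1+2, so the values with an MFN1 siRNA lay below those of every doxorubicin-treated group without one. FAM89B showed the same order, at 16.9 to 21.8 CPM with siMFN2, 14.6 to 18.7 CPM with siMAVS and 10.4 to 12.4 CPM with siMFN1+2. WBP1L did not: it was at 165 to 173 CPM with siMFN2, 162 to 175 CPM with siMFN1+2 and 153 to 165 CPM with siMAVS, all above the cNeg range.

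**Figure D3:**
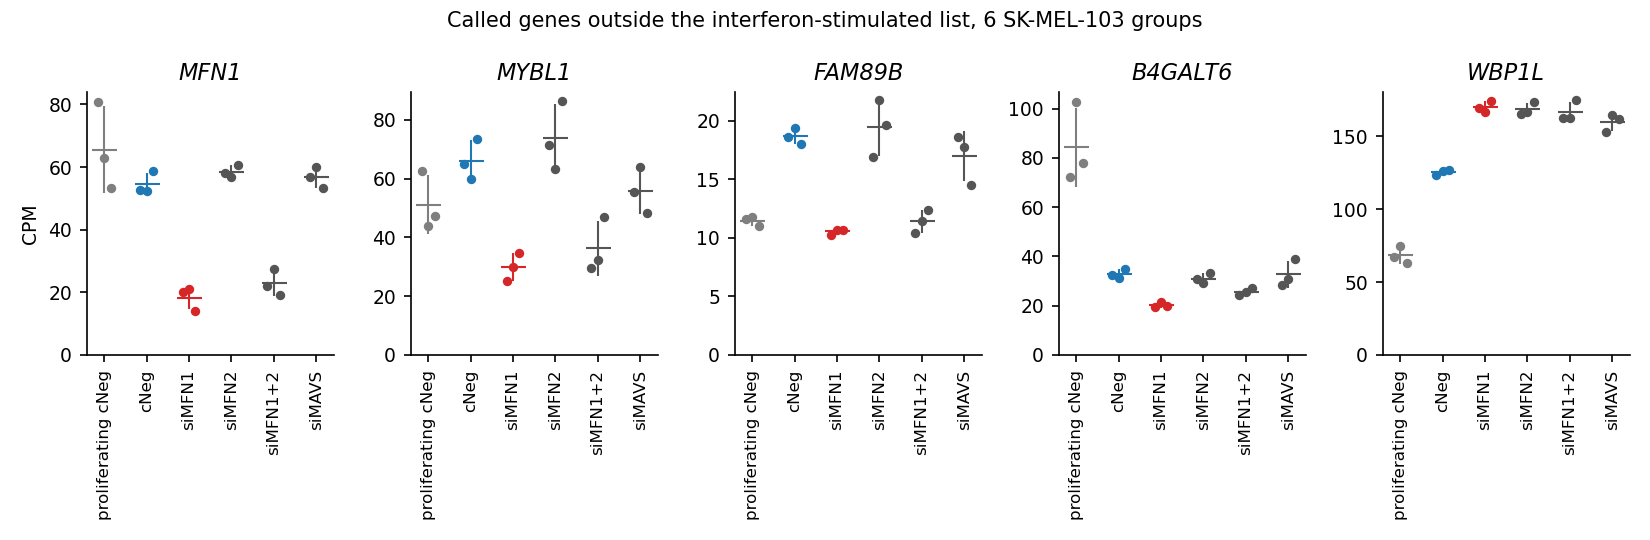
CPM (vertical axis, from 0) of MFN1 and the 4 called genes outside the interferon list in the 6 SK-MEL-103 groups, each point 1 library, bars the mean and SD (n = 3). MYBL1 and FAM89B are low in both groups that received the MFN1 siRNA, whereas WBP1L is near 160 to 170 CPM with each of the 4 targeting siRNAs (group means 160 to 170 CPM) and 126 CPM with cNeg.

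Pairing by replicate number raised the number of calls. Libraries with the same number deviated together from their group means, and with the number as a block over all 18 libraries 32 genes were lower (0.178 % of those tested) and 12 higher, and all 16 genes of the unblocked test kept their call. In the interferon list 14 of 41 were then lower and 0 higher, with OAS1 (adjusted p = 0.034), IFIT2 (0.017) and LGALS3BP (0.041) added, all by the blocked edgeR fit. Outside the list it added lower calls for EGF, a growth factor (log2 fold change -1.03, SE 0.18), CAV1, the caveolae coat protein (-0.58, SE 0.08), and PLK2, a p53-induced kinase (-0.56, SE 0.09), and a higher call for FBXL7, an F-box protein (0.61, SE 0.08). CAV1 shows the pattern: 246, 216 and 324 CPM with cNeg against 148, 162 and 212 CPM with siMFN1, lower in each pair while the third library is the highest of each group.

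With only the 6 libraries in the blocked fit, 2 degrees of freedom remain per gene, and 1642 genes were lower (9.77 % of 16804) and 1452 higher (8.64 %). There 30 of 40 tested interferon-stimulated genes were lower and 0 higher. Of 18 genes of MHC class I antigen presentation, which loads peptides for CD8+ T cells, 12 were lower and 0 higher, among them HLA-B (log2 fold change -0.55), HLA-C (-0.45) and B2M (-0.40). Of 19 genes of cytosolic nucleic acid sensing 7 were lower and 0 higher, among them RIGI and IFIH1, the sensors that signal through MAVS (each with a log2 fold change of -0.42). Lower calls in this fit were not limited to immune lists. Of 23 glycolysis genes 14 were lower and 3 higher, and of 18 genes of dedifferentiated melanoma 8 were lower and 3 higher. Of 22 genes of mitophagy and mitochondrial transport 7 were lower and 1 higher. Of the members of these MHC and sensing lists, none was called without the block (edgeR), where the unadjusted p was under 0.05 in 5 and 4 members, and DESeq2 called 1 in each list. With the block over all groups SAMHD1, a dNTP hydrolase, was called (-0.45, adjusted p = 0.010). Genes named from the blocked fits were chosen after their values were seen.

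**Figure D4:**
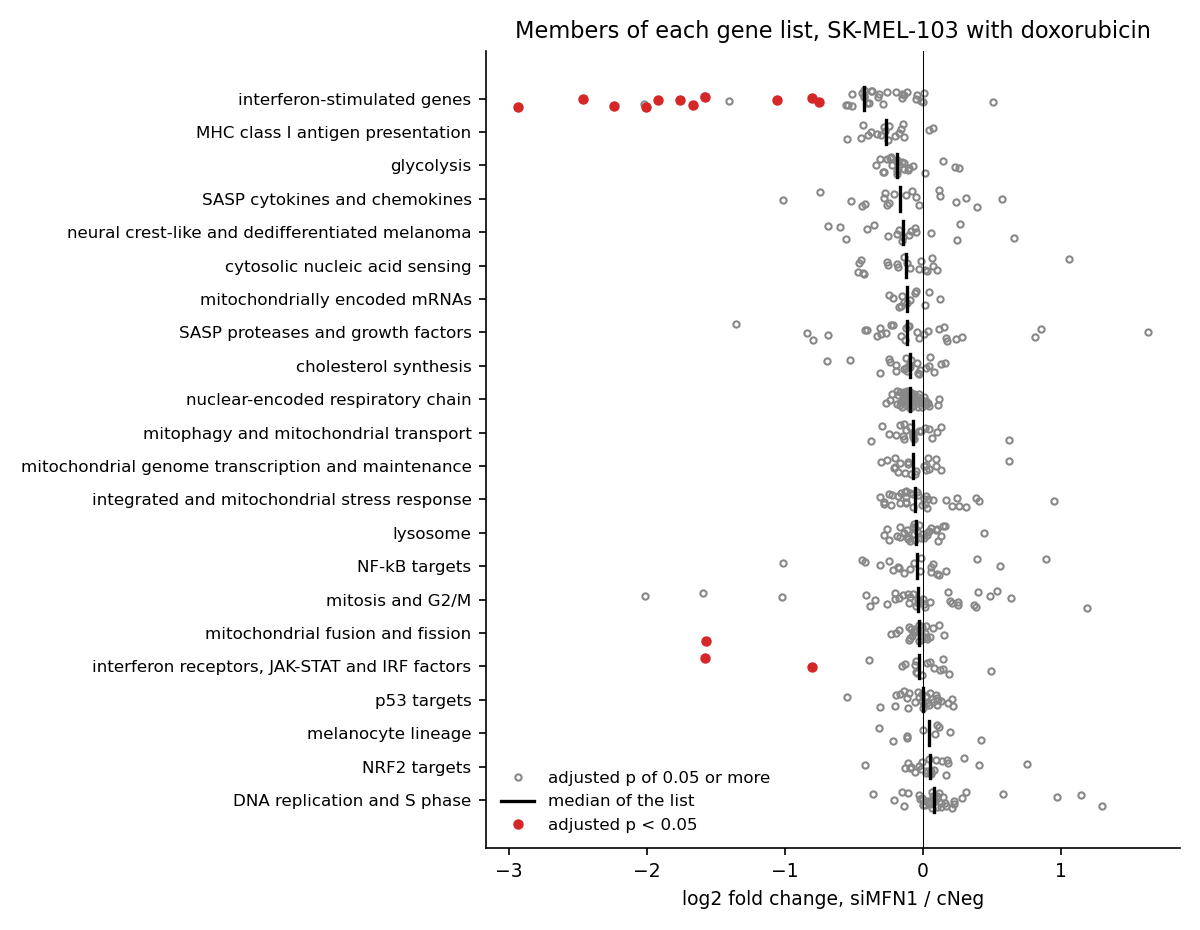
Log2 fold change of siMFN1 over cNeg (horizontal axis) for each tested member of the gene lists with at least 10 tested members, without the replicate block, sorted by the list's median (black bar); red points have an adjusted p under 0.05. The interferon-stimulated list has the lowest median (-0.43) and 11 red points, and MFN1 is the red point of the fusion and fission list.

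Outside the interferon response the unblocked test called few list members. Of 26 lists, 23 had no called member. The exceptions beside the interferon list were the JAK-STAT list and the mitochondrial fusion and fission list, in which MFN1 was the 1 called of 26. No other fusion or fission gene passed, and their list's median log2 fold change was -0.03. In the MHC class I list 0 of 18 members were called, and the median was -0.27. In 11 of the 18 every siMFN1 library was lower than any cNeg library, against 7.89 % of all genes tested. MKI67, a marker of cycling cells, was at 0.171, 0.209 and 1.05 CPM with cNeg and at 0.222, 0.158 and 3.11 CPM with siMFN1 (log2 fold change 1.19, SE 1.44, adjusted p = 0.99), highest in the library numbered 3 of each group. Proliferating cells had 223 to 372 CPM. LMNB1, a lamin lost in senescence, was at 6.27 to 6.82 CPM with cNeg and 6.74 to 11.5 CPM with siMFN1, against 149 to 292 CPM in proliferating cells.

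Of the SASP, 0 of 20 tested cytokines and chemokines and 0 of 30 tested proteases and growth factors were called without the block, with 2 and 5 at an unadjusted p under 0.05 (DESeq2 called 1 and 0). IL6 was at 1.84, 1.5 and 1.84 CPM with cNeg and 2.93, 2.10 and 1.70 CPM with siMFN1, and IL1B at 96.0, 106 and 101 CPM against 86.1, 105 and 105 CPM, so both groups of both genes overlapped. CXCL8, the neutrophil chemokine, was at 4.04, 3.36 and 3.49 CPM against 2.51, 3.28 and 2.22 CPM, without overlap (log2 fold change -0.44, SE 0.30, adjusted p = 0.99; -0.45 and adjusted p = 0.045 with the block and only these 6 libraries). CCL2, which attracts monocytes, was lower in each pair, at 7.59, 4.70 and 10.0 CPM against 2.28, 2.89 and 6.13 CPM (log2 fold change -1.02, SE 0.47, adjusted p = 0.99), and passed in that blocked fit (-1.09, adjusted p = 0.00036). In the same fit 4 of 19 tested cytokines and chemokines were lower and 0 higher, where 9.77 % of all genes were lower and 8.64 % higher. Of 26 tested SASP proteases and growth factors 7 were lower and 7 higher. This second list did not move one way. SPP1, osteopontin, had a log2 fold change of -1.31 and IGFBP3 of -0.87, against 0.85 for VEGFA, the angiogenic factor, and 1.70 for IGFBP5.

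All genes of the mitochondrial chromosome together made up 2.36 ± 0.337 % of counts with siMFN1 and 2.57 ± 0.213 % with cNeg (SD, n = 3 each). The difference was within the spread (two-sided exact permutation test, p = 0.40, where 3 against 3 cannot go below 0.1). None of the 13 mitochondrially encoded mRNAs was called, and their median log2 fold change was -0.12. Of 52 nuclear genes of the respiratory chain 0 were called and 44 had a negative fold change, with a median of -0.09 and the lowest at -0.27. In 16 of the 52 all siMFN1 libraries lay below all cNeg libraries, against 7.89 % of all genes tested. With the block and only the 6 libraries 15 of the 52 were lower (9.77 % of all genes) and 0 higher (8.64 %). Among 34 tested genes of the integrated stress response, which follows mitochondrial damage in many cells, 0 were called and the median was -0.06.

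Adding the MFN2 siRNA lowered mitochondrial mRNAs. siMFN1+2 against siMFN1 called 10 genes (0.0557 % of those tested), all lower, of which 7 were mitochondrially encoded: MT-CO3, for example, was at 2212, 2346 and 2033 CPM with siMFN1 and at 742, 957 and 744 CPM with siMFN1+2 (log2 fold change -1.43, SE 0.22, adjusted p = 0.015). The mitochondrial share was 1.30 ± 0.195 % of counts with siMFN1+2 and 2.42 ± 0.107 % with siMFN2 alone (SD, n = 3). Of the 11 interferon-stimulated genes 0 passed in this test. IFI6 was at 11.6, 12.5 and 16.0 CPM with siMFN1+2, a log2 difference of -0.42 (SE 0.17, adjusted p = 1) that passed with the block and only these 6 libraries (adjusted p = 0.020), a fit in which 580 genes were called. There IFIT1 (-0.66, adjusted p = 0.0028) and ISG15 (-0.28, adjusted p = 0.0135) were lower too, and 5 of 38 tested members of the list were lower and 0 higher.

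The direct test between the mitofusin siRNAs called 20 genes (0.111 % of those tested), 14 higher and 6 lower with siMFN1 than with siMFN2. The targets head both sides: MFN1 (log2 difference -1.67, SE 0.16) and MFN2 (2.26, SE 0.11), which was at 19.8, 21.2 and 20.5 CPM with siMFN2. Of the 16 genes called against cNeg, 3 were called here too, all lower with siMFN1: MFN1, MYBL1 (-1.31, SE 0.18, adjusted p = 0.0052) and FAM89B (-0.88, SE 0.12, adjusted p = 0.0035). Also lower with siMFN1 were SCG2, a granin of secretory granules, at 139, 102 and 92.0 CPM against 227, 245 and 206 CPM, and MYL9, a myosin light chain, at 23.3, 25.0 and 27.2 CPM against 42.4, 46.7 and 42.0 CPM. Higher were ABCA12, a lipid transporter (1.42, SE 0.25), ZDHHC14, a palmitoyltransferase (0.99, SE 0.16), TLE3, a transcriptional corepressor (0.97, SE 0.13), and C15orf39 (0.96, SE 0.14).

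Of the 11 interferon-stimulated genes 0 differed between siMFN1 and siMFN2 in that test, with log2 differences from -0.95 (IFI27, SE 0.42) to -0.09 (ISG15, SE 0.14). The 11 were chosen for being low in these siMFN1 libraries, so their sign carries no support, and over the 41 tested members of the list the median difference was -0.07. IFI6 was at 24.1, 29.0 and 20.9 CPM with siMFN2, above each siMFN1 library (log2 difference -0.48, SE 0.17, adjusted p = 0.28). With the block over all groups 402 genes were called, 1 of the 11 among them, and IFI6 did not pass (adjusted p = 0.13). With the block and only these 6 libraries, where 3138 genes were called, 2 of the 11 were lower, IFI6 among them (adjusted p = 0.019). Over the list 4 of 39 tested members were lower and 3 higher in that fit. Of all 16630 genes tested there, 1725 were lower and 1413 higher.

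Against the same cNeg libraries, siMFN2 called IFI6 alone of the 16 genes (log2 fold change -1.52, SE 0.17, adjusted p = 0.00053, where 0.0167 % of genes were lower). siMFN1+2 called 13 of the 15 lower genes as lower (0.162 % of genes), all 11 interferon-stimulated genes among them, and WBP1L as higher. Side by side, IFIT1 had log2 fold changes of -1.66 with siMFN1, -1.41 with siMFN2 and -2.35 with siMFN1+2, and MYBL1 of -1.15, 0.16 and -0.87. These 3 comparisons share their control libraries, so their likeness is not a separate result. With siMAVS, IFI6 was at 11.3, 11.6 and 10.3 CPM and IFIT1 at 7.44, 7.17 and 4.51 CPM, both below each siMFN1 library.

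**Figure D5:**
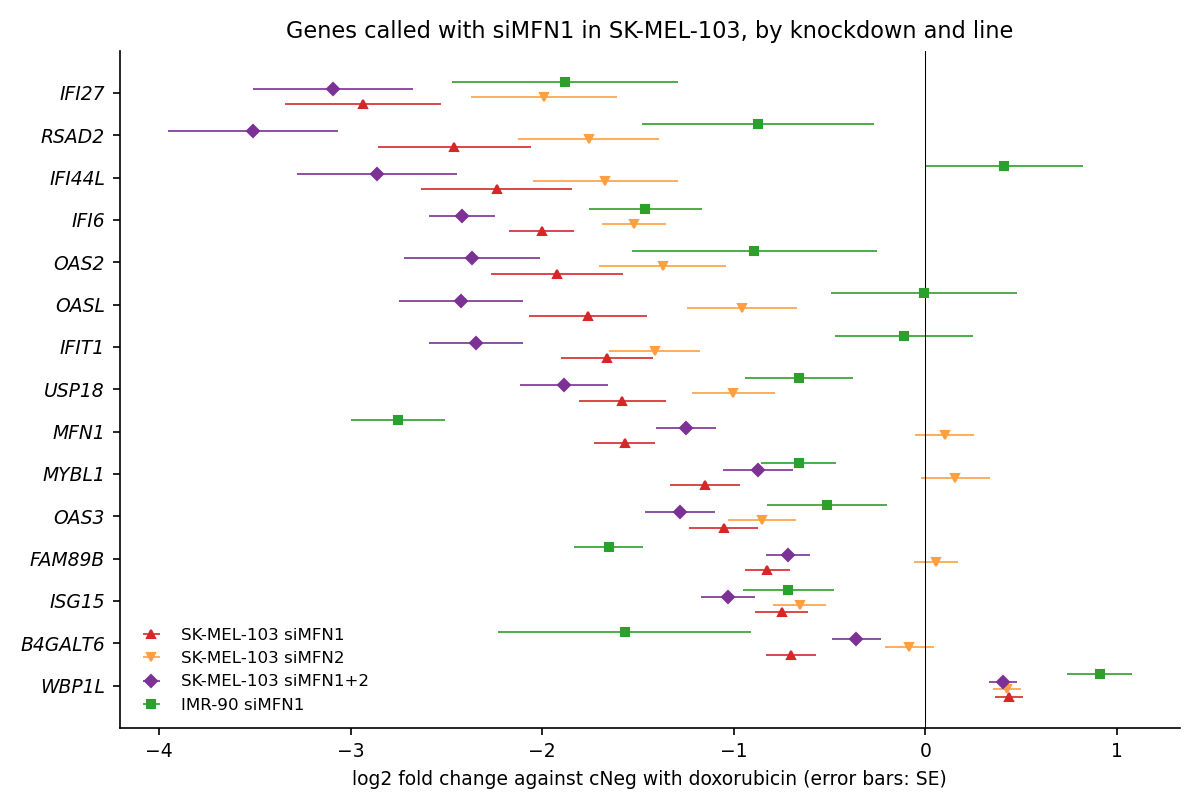
Log2 fold change against cNeg with doxorubicin (horizontal axis, error bars SE) of 15 genes called with siMFN1, for siMFN1, siMFN2 and siMFN1+2 in SK-MEL-103 and siMFN1 in IMR-90. MYBL1 and FAM89B are near 0 with siMFN2 alone (0.16 and 0.06).

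In IMR-90 with the same siRNA MFN1 fell from 50.6, 65.7 and 39.6 CPM to 7.79, 8.02 and 7.29 CPM (log2 fold change -2.75, SE 0.25), and 2.09 % of 20892 genes were lower. The MFN1 effect was not called as different between the lines (difference 1.17, SE 0.33, adjusted p = 0.19). Of the 16 SK-MEL-103 genes, 4 were called in IMR-90, each in the same direction: MFN1, IFI6 (log2 fold change -1.46, adjusted p = 0.0040), FAM89B (-1.65, adjusted p = 3.4e-06) and WBP1L (0.91, adjusted p = 0.0018). Of the 11 interferon-stimulated genes, IFI6 was the 1 called in IMR-90, and 9 had a negative fold change there. Of the 48 members of the list 1 was called lower and 0 higher in IMR-90, where 2.09 % of all genes were lower. The median log2 fold change of the 48 there was -0.47, against -0.01 over the 17945 genes tested in SK-MEL-103. In SK-MEL-103 the list's median was -0.43, over 41 tested members. The test of the difference between the lines called 1 of the 11, and 2 and 4 with the replicate block over all groups and with only the libraries compared. IMR-90 cNeg replicate 3 stood apart in several of these genes: IFI6 was at 28.2, 22.9 and 73.3 CPM with cNeg, and IFIT1 at 5.85, 7.55 and 25.8 CPM. In the fit over the 36 libraries of both lines the SK-MEL-103 effect itself called 4 genes, 2 of them interferon-stimulated, IFI6 among them, so fewer than in the SK-MEL-103 fit.

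The test of the difference between the lines called 24 genes (0.115 % of those tested), 15 with a higher and 9 with a lower siMFN1 effect in SK-MEL-103. In 22 of the 24 the IMR-90 effect was called, and in 1 the SK-MEL-103 effect. Leaving out each of the 12 libraries compared gave 1 to 37 calls in this test, the fewest without SK-MEL-103 cNeg or siMFN1 replicate 1 and the most without IMR-90 cNeg replicate 2. With only the 12 libraries in the fit 11 genes were called. With the replicate number as a block it called 156 genes, with IFI44L added (difference -2.66, adjusted p = 0.038), and 1992 with only the 12 libraries compared.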

How the data were processed

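Stranded mRNA libraries were sequenced, per the labels. The authors trimmed reads with Trim Galore 0.6.7, aligned them to GRCh38 with STAR 2.7.10a and counted them per gene with featureCounts, per the submitters' processing notes. The deposited values are raw counts for 48898 Ensembl genes in 48 libraries. The annotation release and the strand setting of the counting are not given in the sources used here, so overlapping or near-identical genes may share counts. Symbols were matched for 48679 genes, and gene coordinates come from GENCODE 29.

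From these counts, genes were filtered with filterByExpr, scaled by TMM and tested with the quasi-likelihood F test of edgeR 4.0.16 (R 4.3.3) over all 18 SK-MEL-103 siRNA libraries, or over the 36 of both lines for the comparison with IMR-90, with no block. P-values were adjusted by Benjamini-Hochberg over all genes tested, and a gene was called at an adjusted p under 0.05. Levels are TMM-scaled CPM. Alternatives were DESeq2 1.42.0, its size factors, other count filters, fewer libraries, the replicate block and leaving out each library. Counts of list members under the block with only the libraries compared were added after the data were seen. The numbers were taken to pair the libraries because the deviations of siMFN1 and cNeg libraries of the same number from their group means correlated over 17945 genes (r = 0.22, 0.28 and 0.42). Between libraries of different numbers r ran from -0.325 to 0.153. Depth followed the number in both groups, and its part in these correlations was not tested. The pairing rests on the data, since the labels do not say what a number marks. No library was a copy of another library of its group, and pairs from different groups were not compared.

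Named genes were fixed genes of the pathway and of senescence, up to 10 called protein-coding genes each way whose groups did not overlap and whose log2 CPM averaged 2 or more, up to 4 called members of each list each way, and up to 5 genes each way in the other comparisons. OAS2, OASL and the genes of the low-count and blocked results were named after their values were seen. The members and lists were chosen with earlier results of these data known. Counting error alone limits genes with few counts, and replicate spread limits the rest. Some genes counted in the totals are not reported here by name.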

Additional observations from a re-analysis of the deposited data

Results flagged for a closer look

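In 9 named genes the test of the difference itself called the siMFN1 effect as different between SK-MEL-103 and IMR-90 (edgeR, both lines in one fit). Of the 24 genes called in that test, 7 kept the call with only the libraries compared. Without SK-MEL-103 siMFN1 replicate 1, 1 of the 24 kept it. The values are log2 differences, the SK-MEL-103 effect minus the IMR-90 effect. The difference was 2.72 for SYNGR3, 1.80 for MELTF, 1.66 for DDR1, 1.65 for SPAG4 and 1.64 for KIF5C. It was -2.38 for LDB2, -2.08 for SLC6A17, -1.80 for GBP1 and -1.70 for LCTL. SYNGR3, a synaptic vesicle protein, had a log2 fold change of -2.95 in IMR-90, and LDB2, a LIM domain binding protein, of 1.72. GBP1, an interferon-induced GTPase, had a log2 fold change of -0.97 in SK-MEL-103 and 0.83 in IMR-90 in that fit.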

How the results depend on the processing

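For siMFN1 against cNeg the 16 calls became 47 with DESeq2, 214 with no filter on low counts, 44 with the replicate block over all groups, 3094 with the replicate block and only the libraries compared, and 3 to 9 when 1 library was left out. The 11 called interferon-stimulated genes became 30 with that last block and 2 to 7 with 1 library left out. All 16 genes kept their call in both blocked fits. With only the libraries compared and no block 24 genes were called, 14 of the 16 among them, and 10 members of the interferon list. The 24 calls for the difference between the lines became 175 with DESeq2, 11 with only the libraries compared, 156 and 1992 with the block over all groups and with only the libraries compared, and 1 to 37 with 1 library left out. The 20 calls against siMFN2 became 214 with DESeq2, 670 with no filter, 177 with only the libraries compared, 402 and 3138 with the 2 blocks, and 5 to 21 with 1 library left out. The 10 calls of siMFN1+2 against siMFN1 became 71 with no filter, 5 with only the libraries compared, 580 with the block and only those, and 3 to 11 with 1 library left out. The cause of these shifts was not tested, beyond the smaller number of libraries in some fits. Values near 0 changed sign: CDKN1A was 0.0035 with a CPM of at least 1 in 3 libraries and 0.0022 with only the libraries compared. With 1 library left out, the log2 fold change ran from -0.078 to 0.10 for CDKN1A, -0.11 to 0.031 for MFN2, -0.0020 to 0.068 for MAVS, -0.96 to 2.23 for MKI67 and -0.079 to 0.058 for IL1B. Over the named genes, 513 values kept direction and call, 180 lost the call, 4 gained one and 10 changed sign. Depth limits IFI27, RSAD2, OASL and BST2, and the interferons could not be compared.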
